A study of Homo sapiens with 6 samples.

Results

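The genes described here take part in lipid handling. They include the fatty acid-binding proteins FABP3, FABP4, FABP5 and FABP6, the fatty acid receptor CD36 and the lipid droplet coat protein PLIN2. The others are the secreted lipase inhibitor ANGPTL4 and the mitochondrial carnitine transferase CPT1A. These 8 genes were picked by name because FABP4 was lower after FGFR3 knockdown in bladder cancer cells while other genes of luminal urothelial differentiation were higher, so the comparison of knockdown with control had already been used to choose them and their values in it are given as a description. Of the 8 genes, 7 had a row among the 19361 rows of the deposited table, and FABP5 was not analysed here. FABP3 and CD36 were among the 5809 dimmest rows, with a mean log2 level under 3.89, which were left out of the model, and FABP4, FABP6, PLIN2, ANGPTL4 and CPT1A were among the 13552 rows kept.

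UMUC-14 is an established human bladder cancer cell line, grown in DMEM with fetal serum. RNA was measured on 6 Affymetrix U133 Plus 2.0 arrays in 2 groups of 3. The control cells received the transfection reagent LipofectaminRNAimax and no siRNA, and the other cells received an siRNA against the growth factor receptor FGFR3, with a different siRNA on each array (siFGFR3#35, siFGFR3#36 and siFGFR3#3). All cells were harvested after 40 h. No control siRNA is named in the labels, so that an siRNA of any sequence and the loss of FGFR3 cannot be told apart, and the labels do not say whether the arrays of a group came from separate cultures, so the errors may hold technical spread only. In bulk RNA, fewer cells of a type and less RNA per cell cannot be told apart either.

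Fatty acids enter cells by diffusion and through proteins such as CD36, are carried through the cytosol by small binding proteins of the FABP family, and are activated to acyl-CoA. They are then stored as triglyceride in lipid droplets, whose surface is coated by perilipins such as PLIN2, or passed by CPT1A into the carnitine shuttle for oxidation in mitochondria. Several of these genes are direct targets of the nuclear receptors PPARA, PPARD and PPARG, which bind DNA as heterodimers with RXR and are activated by fatty acids, and in urothelium PPARG promotes luminal differentiation, of which FABP4 is a known marker gene. FABP6 differs from its relatives in that it carries bile acids, and its best known regulator is the bile acid receptor FXR.

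Promoter sequences are shown for PLIN2 and FABP6, which moved in opposite directions and are the members past the threshold for which a promoter window was given. Each window runs from 250 bases before to 50 bases after the gene start, is taken from RefSeq on GRCh38.p14, and is printed 5′ to 3′ on the strand of the gene. The PLIN2 window lies at chr9:19127443-19127742 on the minus strand and the FABP6 window at chr5:160229256-160229555 on the plus strand. In the PLIN2 window the capitals mark an E-box (CACGTG) that begins 69 bases before the start and a short TATA box (TATAAA on the other strand) that begins 29 bases before it. In the FABP6 window they mark an inverted repeat (GGGTGAATAACCT), known from the literature as an FXR site of the human gene, that begins 160 bases before the start, and a short TATA box (TATAAA on the other strand) that begins 30 bases before it.
PLIN2: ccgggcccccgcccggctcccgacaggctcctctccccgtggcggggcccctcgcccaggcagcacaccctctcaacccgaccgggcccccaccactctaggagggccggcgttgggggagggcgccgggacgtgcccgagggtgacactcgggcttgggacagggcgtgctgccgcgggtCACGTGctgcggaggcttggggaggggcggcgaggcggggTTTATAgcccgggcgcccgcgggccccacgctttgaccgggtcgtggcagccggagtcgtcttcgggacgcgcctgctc
FABP6: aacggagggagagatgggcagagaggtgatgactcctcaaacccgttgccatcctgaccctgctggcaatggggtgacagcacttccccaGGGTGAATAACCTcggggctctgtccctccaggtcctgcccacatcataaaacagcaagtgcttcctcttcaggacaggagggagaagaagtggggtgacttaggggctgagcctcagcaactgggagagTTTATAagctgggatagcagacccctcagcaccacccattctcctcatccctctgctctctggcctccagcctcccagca

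The windows differ in composition, with 76.7% G and C in PLIN2 and 57.7% in FABP6. Both strands of all 35116 windows in the RefSeq table were searched. The E-box was found in 7.26% of them and TATAAA in 11.5%. The 13-base inverted repeat was copied from the FABP6 window, so its match there was fixed in advance. It was found in that 1 window only. The direct repeat to which PPAR and RXR bind (AGGTCANAGGTCA, which holds the half-site AGGTCA at each end) was found in 8 windows, and the half-site alone in 13.8%. None of the 11 windows of the 6 members listed in the table (FABP3, FABP6, CD36, PLIN2, ANGPTL4 and CPT1A) held the half-site, which says only that these letters are not in these short windows. TATAAA was also found in the ANGPTL4 window, beginning 29 bases before its start, and in 2 CD36 windows, beginning 211 and 216 bases before theirs. The E-box and the inverted repeat were chosen after the sequences were read.

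The target of the siRNAs was lower on every siRNA array. FGFR3 was at 8.70, 8.75 and 8.74 on the log2 scale on the reagent-alone arrays, at 7.47 with siFGFR3#35, at 7.14 with siFGFR3#36 and at 8.45 with siFGFR3#3. These values correspond to 41.7%, 33.3% and 82.2% of the mean control signal, so the array with siFGFR3#3 kept most of its FGFR3 signal. Over the kept rows the median SD was 0.0536 among the controls and 0.129 among the siRNA arrays. Of 9 measured epithelial and urothelial markers 8 were kept; among them KRT19, a keratin of simple epithelia and the brightest, had a mean of 12.9 in controls, and GATA3, a luminal transcription factor, one of 8.82. The 8 kept markers went both ways in siFGFR3 cells: 3 rose, 2 fell and 3 did not pass, with a median change of -0.02. By array this median ran from -0.29 (siFGFR3#3) to 0.20 (siFGFR3#36). GATA3 rose by 0.79 (adjusted p = 0.0008) and KRT19 by 0.27 (adjusted p = 0.0044). KRT5, a basal keratin, fell by 0.98 (adjusted p = 0.00093). UPK2 rose by 1.14 and EPCAM fell by 0.51, both named after their values were seen. In limma 6118 genes passed at an adjusted p under 0.05, 2789 higher and 3329 lower, which is 45.1% of those kept, and with each array centred on its median the counts were 2312 and 4285.

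Among the fatty acid-binding proteins, FABP4 (Entrez gene 2167), the carrier best known from adipocytes, was the member with the largest difference. Its log2 level was 6.51, 6.53 and 6.40 on the reagent-alone arrays. With siFGFR3#35 it reached only 3.64, against 5.58 for siFGFR3#36 and 4.89 for siFGFR3#3. All siRNA arrays lay below all controls, and the siRNA arrays spread over 1.95 log2 units against 0.127 among the controls. The group means were 6.48 ± 0.07 and 4.70 ± 0.99 (SD, n = 3), a difference of -1.77 (SE 0.43) or 3.42-fold. The signal was at 13.9% of the control mean with siFGFR3#35, at 53.7% with siFGFR3#36 and at 33.4% with siFGFR3#3. The level with siFGFR3#35 was below 3.89, the level under which dim rows were left out, so the size of that difference is uncertain. These are the values for which FABP4 was chosen.

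FABP6 (Entrez gene 2172), the bile acid carrier of the ileum, was the only kept member with a higher mean in siFGFR3 cells. It was at 6.80, 6.66 and 6.67 in reagent-alone cells, and at 7.32 with siFGFR3#35, 6.87 with siFGFR3#36 and 7.01 with siFGFR3#3. The lowest siRNA array, siFGFR3#36, was just above the highest control. The difference was 0.36 (SE 0.12), or 1.28-fold. FABP3 (Entrez gene 2170), the carrier of heart and skeletal muscle, was dim on all 6 arrays, at 2.85, 2.99 and 3.07 in controls and 2.77, 3.00 and 2.86 with siFGFR3#35, siFGFR3#36 and siFGFR3#3. Its groups overlapped, and at such levels a difference was not detectable.

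At the membrane, CD36 (Entrez gene 948), which takes up long-chain fatty acids, was likewise dim on all 6 arrays. Its levels were 2.51, 2.64 and 2.59 in controls and 2.51, 2.49 and 2.50 with siFGFR3#35, siFGFR3#36 and siFGFR3#3. The siRNA arrays lay just under the lowest control, by a margin too small to be read at these levels.

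PLIN2 (Entrez gene 123), which coats lipid droplets in most cell types, was the member with the tightest controls, at 9.36, 9.36 and 9.34. It was at 8.52 with siFGFR3#35, 8.89 with siFGFR3#36 and 8.83 with siFGFR3#3, below every control on every siRNA array. The means were 9.35 ± 0.01 and 8.75 ± 0.20 (SD, n = 3), a difference of -0.61 (SE 0.10) or 1.52-fold. With siFGFR3#35, siFGFR3#36 and siFGFR3#3 the PLIN2 signal was at 56.1%, 72.5% and 69.8% of the control mean.

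ANGPTL4 (Entrez gene 51129), a secreted protein that inhibits lipoprotein lipase and responds to fasting, hypoxia and PPAR agonists, was at 5.83, 5.97 and 5.78 in controls. It was at 5.35 with siFGFR3#35, at 5.85 with siFGFR3#36 and at 5.54 with siFGFR3#3. The siFGFR3#36 array lay among the controls, so the groups overlapped, and the difference of means was -0.28 (SE 0.13). CPT1A (Entrez gene 1374), which makes acylcarnitines at the outer mitochondrial membrane, was at 5.07, 5.07 and 4.96 in controls and at 4.80, 4.90 and 4.77 with siFGFR3#35, siFGFR3#36 and siFGFR3#3. Its siRNA arrays all lay below its controls by a small margin, and the difference was -0.21 (SE 0.07).

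**Figure D1:**
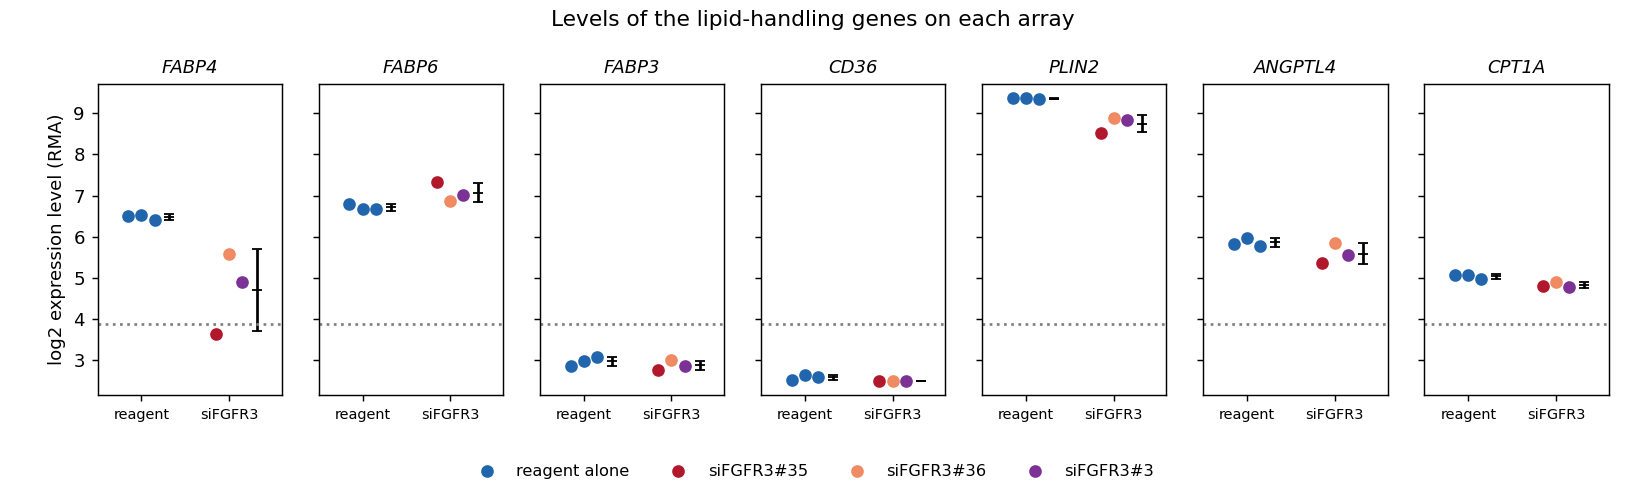
Log2 expression level (RMA) of the 7 measured genes on each of the 6 arrays, 1 panel per gene; points are arrays, black bars the group mean and SD (n = 3), and the dotted line is the level of 3.89 under which a row's mean was too dim to be kept. FABP4 spreads from 3.64 to 5.58 over the siRNA arrays, PLIN2 lies below its controls on each of them, and FABP3 and CD36 lie under the dotted line throughout.

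Of the 5 kept members, FABP4 and PLIN2 were past the limma threshold toward lower and FABP6 toward higher levels in siFGFR3 cells, beside 24.6% and 20.6% of all kept genes, and ANGPTL4 and CPT1A were not past it. The groups did not overlap in 4 of the 5 members, 3 lower and 1 higher, against 60.8% of all kept genes (33.9% lower and 26.9% higher). Because the comparison had been used to choose the members, nothing is read from these counts. The same holds for the refits that follow, which use the same values and describe only how the calls moved. Without reagent-alone replicate 1, 2 or 3 PLIN2 was the only member past the threshold. FABP4 was just short of it in each of these fits, at differences of -1.76, -1.75 and -1.81. FABP6 was past the threshold in neither the fit without dim-row filtering nor that with arrays centred on their medians, so that 0 members were higher (1 at an unadjusted p under 0.05 in each). CPT1A was past the threshold toward lower levels with arrays centred on their medians and without the variance trend. In a model with a level for each siRNA both CPT1A and ANGPTL4 were past it toward lower levels. Without siFGFR3#36 FABP4, PLIN2, ANGPTL4 and CPT1A were lower and FABP6 higher, and without siFGFR3#35 or siFGFR3#3 FABP4 and PLIN2 were lower and FABP6 was not past the threshold.

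The siRNAs were then set against each other. The differences between siRNAs were not part of the rule that chose the genes. The rule did use the same siRNA arrays, however, so the comparison is not independent of the choice. A limma model with 4 levels, reagent alone and each siRNA, gave 15 differences for the 5 kept members over 3 pairs of siRNAs, with p-values adjusted over all 13552 genes in each pair; 8 of the 15 passed. Each siRNA has 1 array, here assumed to vary like the controls, so the p-values compare arrays and not siRNAs in general.

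FABP4 differed in all 3 pairs. It was higher with siFGFR3#36 than with siFGFR3#35 by 1.95 (SE 0.11, adjusted p = 2.62e-06), and higher with siFGFR3#3 than with siFGFR3#35 by 1.26 (adjusted p = 6.55e-05). FABP4 with siFGFR3#35 was under 3.89, so the sizes of both differences are uncertain. With siFGFR3#3 it was lower than with siFGFR3#36, at -0.69 (adjusted p = 0.0017). PLIN2 was likewise lowest with siFGFR3#35, by 0.37 against siFGFR3#36 (adjusted p = 0.00072) and by 0.31 against siFGFR3#3 (adjusted p = 0.00335). Between siFGFR3#3 and siFGFR3#36 its difference of -0.06 did not pass, with a 95% confidence interval from -0.18 to 0.06.

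FABP6 was highest with siFGFR3#35. Its difference was -0.46 for siFGFR3#36 against siFGFR3#35 (adjusted p = 0.00375) and -0.31 for siFGFR3#3 against siFGFR3#35 (adjusted p = 0.0375), and the latter did not pass without reagent-alone replicate 2 (adjusted p = 0.0799), without dim-row filtering (0.0641) or without the variance trend (0.103). For siFGFR3#3 against siFGFR3#36 the interval ran from -0.06 to 0.34. ANGPTL4 was higher with siFGFR3#36 than with siFGFR3#35 by 0.50 (SE 0.12, adjusted p = 0.00881). Its other pairs did not pass, with intervals from -0.07 to 0.45 for siFGFR3#3 against siFGFR3#35 and from -0.57 to -0.05 for siFGFR3#3 against siFGFR3#36 (adjusted p = 0.0795). CPT1A passed in 0 of the 3 pairs in limma (0 also at an unadjusted p under 0.05), and its widest intervals allowed differences of up to 0.39 upward and -0.41 downward.

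Between siFGFR3#36 and siFGFR3#35, 4 of the 5 members passed, beside 32.1% of all kept genes. Between siFGFR3#3 and siFGFR3#35, 3 passed beside 18.3%, and between siFGFR3#3 and siFGFR3#36, 1 passed beside 26.0%. The order of the arrays in FABP4, PLIN2, FABP6 and ANGPTL4 was the same, with siFGFR3#35 farthest from the controls and siFGFR3#36 nearest to them. For PLIN2, FABP6 and ANGPTL4, however, the arrays with siFGFR3#3 and siFGFR3#36 did not differ at the threshold. With arrays centred on their median this difference was past the threshold for ANGPTL4, at -0.36. The order of the FGFR3 signal was another: it was lowest with siFGFR3#36 and highest with siFGFR3#3, which differed by 1.30 (adjusted p = 8.15e-07). The interferon response also set siFGFR3#36 apart, since the median change of 12 interferon-induced genes from the controls was 3.15 on its array, against 1.39 for siFGFR3#35 and 0.66 for siFGFR3#3. Among these genes MX2 and IFIT2, both antiviral effectors, were highest with siFGFR3#36, at 3.51 and 3.58 above the controls. The part of either in the differences of the lipid genes was not tested.

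**Figure D2:**
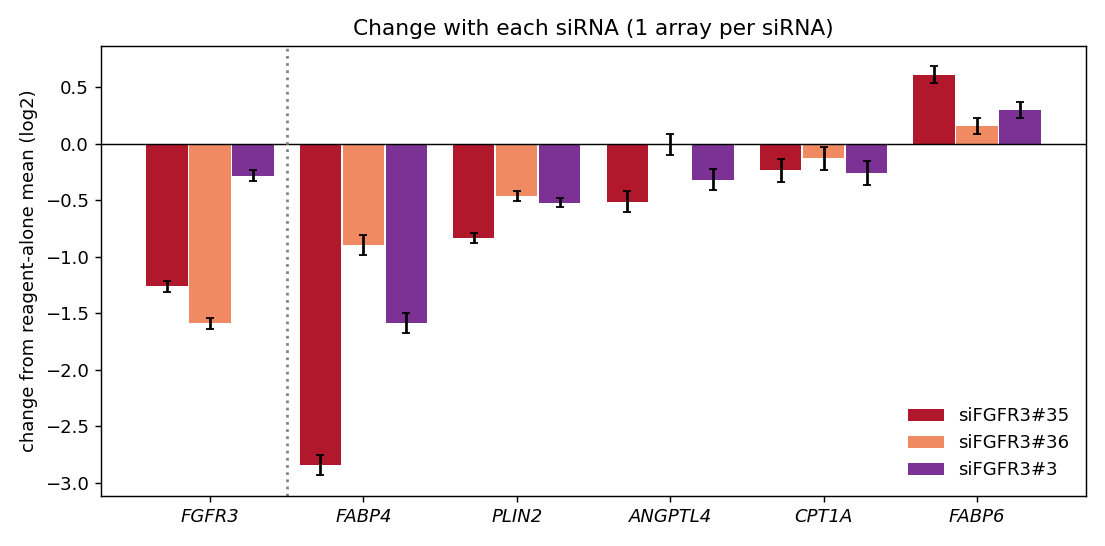
Change in log2 level from the mean of the reagent-alone arrays with each siRNA, for FGFR3 (left of the dotted line) and the 5 kept lipid-handling genes; bars are single arrays and error bars the SE of the 4-level limma model. The changes of FABP4 are -2.84, -0.90 and -1.58 with siFGFR3#35, siFGFR3#36 and siFGFR3#3, where those of FGFR3 are -1.26, -1.59 and -0.28.

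Genes whose values ran closest to those of FABP4 over the 6 arrays were sought among 13039 named genes by the root mean square difference between their deviations from the reagent-alone mean. The nearest was THBD, the thrombin receptor thrombomodulin of the anticoagulant pathway, at a root mean square difference of 0.15 log2 units. Its differences from the reagent-alone mean were -2.56, -0.90 and -1.35 with siFGFR3#35, siFGFR3#36 and siFGFR3#3. TLR4, the receptor for bacterial lipopolysaccharide, followed at 0.21, then SHISA2, an endoplasmic reticulum protein, at 0.26, TFF1, a secreted trefoil peptide, at 0.26 and MYEOV at 0.28. All of these lay lowest with siFGFR3#35, which follows from their choice by nearness to FABP4. This likeness is a description of 6 arrays that were also used to choose FABP4. For the other members the nearest genes, with smaller changes to match, were PTS, IPO5 and AK6 for PLIN2 (0.02 to 0.03), IDS, NRAV and ZNF175 for FABP6 (0.03 to 0.04), PPP6R1, CLN6 and CCDC124 for ANGPTL4 (0.03 to 0.04) and NDUFS4, FBXO22 and SLC6A3 for CPT1A (0.02 to 0.03).

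**Figure D3:**
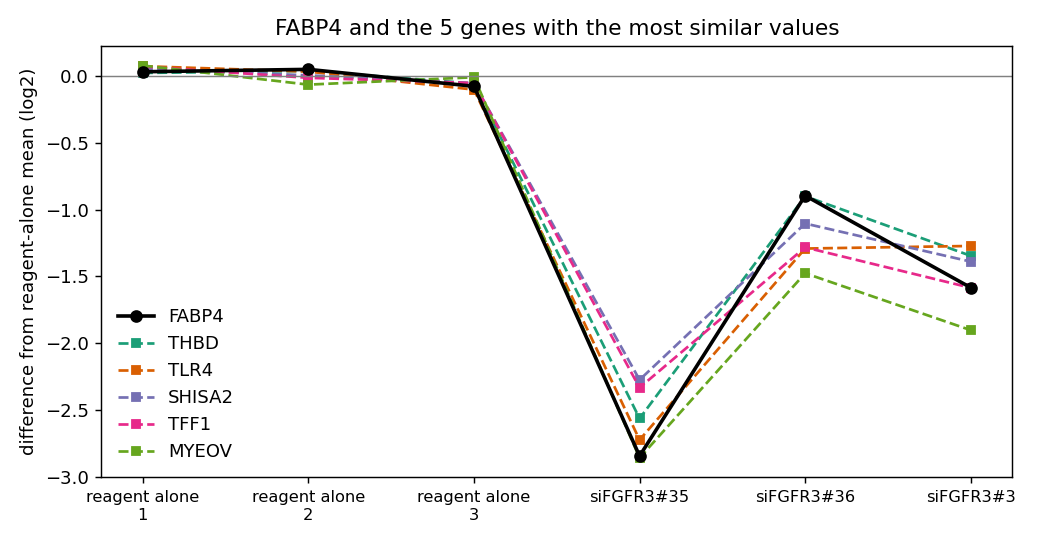
Difference of the log2 level from the reagent-alone mean on each of the 6 arrays for FABP4 (black) and the 5 genes nearest to it by root mean square difference. The 5 genes were chosen by this nearness, so all 6 genes are lowest with siFGFR3#35, where FABP4 is at -2.84 and THBD at -2.56. The lines join arrays for legibility and mark no order.

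The rest of the lipid-handling pathway was read from 9 lists of genes that are not members, with 120 measured genes, of which 93 were kept. Of these, 30 rose, 16 fell and 47 did not pass. The share called, 49.5%, was near the 45.1% called over all kept genes, with 32.3% higher and 17.2% lower beside 20.6% and 24.6%; the difference between these shares was not tested. The median change was 0.11 against -0.04 over all kept genes. The counts fell to 18 higher without each of the 3 reagent-alone replicates and to 6, 9 and 6 lower without replicate 1, 2 or 3. With arrays centred on their median 23 were higher and 22 lower.

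Of 22 tested genes of the carnitine shuttle and mitochondrial beta-oxidation, 11 rose and 1 fell, while 10 did not pass. The share called was 54.5%, beside 45.1% of all kept genes, and the median change was 0.21 against -0.04 over all kept genes. SLC22A5, which imports carnitine, rose by 0.58 (SE 0.07, adjusted p = 0.0012), with 0.63, 0.53 and 0.57 on the arrays with siFGFR3#35, siFGFR3#36 and siFGFR3#3. DECR1, a reductase needed for unsaturated fatty acids, rose by 0.69 (SE 0.12, adjusted p = 0.0045). HADHA and HADHB, the subunits of the trifunctional protein, rose by 0.20 and 0.45. The gene that fell was ETFA, an electron carrier of the acyl-CoA dehydrogenases, at -0.40, and CPT2, the partner of CPT1A in the inner membrane, did not pass (0.14, adjusted p = 0.24). HADHA, HADHB, ETFA and CPT2 were named after their values were seen. Without reagent-alone replicate 1, 2 or 3 the genes that rose were 5, 6 and 6, and with arrays centred on their median 8 rose and 2 fell.

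Peroxisomal beta-oxidation gave 5 rises, 0 falls and 4 genes that did not pass in limma, with a median of 0.30. The share called was 55.6%, beside 45.1% of all kept genes, and 0 of the 9 tested genes fell also at an unadjusted p under 0.05. ACOX2, left out as dim, was lower on every siRNA array than on any control. Its mean was 3.10 in siFGFR3 cells and 3.82 in controls, and it was named after its values were seen. CROT, which attaches carnitine to medium-chain products for export, rose by 0.70 (SE 0.08, adjusted p = 0.0013) and the thioesterase ACOT8 by 0.53 (SE 0.07, adjusted p = 0.0022). The others that rose, named after their values were seen, were ACOX3, HSD17B4 and PEX11A, by 0.38, 0.30 and 0.52. The 4-level model called 1 gene lower.

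Fatty acid uptake and activation gave 3 rises and 3 falls among 10 tested genes, a share called of 60% beside 45.1% of all kept genes. ACSL1, an acyl-CoA synthetase and PPAR target, rose by 0.90 (SE 0.05, adjusted p = 0.0002), and its changes with siFGFR3#35, siFGFR3#36 and siFGFR3#3 were 0.91, 0.92 and 0.88. SLC27A5, a bile acid and very long-chain acyl-CoA synthetase, fell by 0.38 (SE 0.07, adjusted p = 0.0067). The transport proteins SLC27A3 and SLC27A1 rose by 0.37 and 0.34, while SLC27A4 and the lysolipid transporter MFSD2A changed by -0.36 and -0.33, all named after their values were seen. Without any 1 of the reagent-alone replicates 1 gene fell, and with arrays centred on their median 5 fell and 3 rose.

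Lipid droplet genes other than PLIN2 went both ways, with 4 of 23 higher and 5 lower. The other 14 did not pass, the share called was 39.1% beside 45.1% of all kept genes, and the median was 0.01. FITM2, which takes part in droplet formation at the endoplasmic reticulum, fell by 0.48 (SE 0.07, adjusted p = 0.002), and the droplet enzyme HSD17B11 rose by 0.45 (SE 0.11, adjusted p = 0.0153). AUP1, CIDEA, PLIN4 and MGLL, the last a monoglyceride lipase, also fell (-0.25, -0.38, -0.40 and -0.30). ABHD5, which activates triglyceride lipase, DGAT1, which makes triglyceride, and HILPDA, a lipase inhibitor induced by hypoxia, rose (0.35, 0.30 and 0.33). Of the other perilipins, PLIN1, PLIN3 and PLIN5 did not pass, at -0.12, 0.22 and -0.18. All names after HSD17B11 were chosen with values in view. Without reagent-alone replicate 1, 2 or 3, 0 of these genes rose (3, 5 and 2 at an unadjusted p under 0.05) and 1, 3 and 1 fell. Without siFGFR3#35 or siFGFR3#3, or with dim rows kept, 3 fell, and with arrays centred on their median 1 rose and 8 fell.

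Other intracellular lipid-binding proteins were mostly dim. Of 8 measured, 2 were kept: RBP7, a retinol carrier, fell by 0.44 (SE 0.10, adjusted p = 0.0119) to a mean of 3.76, under the level for dim rows, and CRABP2, a retinoic acid carrier, did not pass (-0.20, adjusted p = 0.117). FABP1, FABP2, FABP7 and PMP2 were dim. Of 4 tested genes in the list of lipoprotein lipase and angiopoietin-like proteins 1 fell, GPIHBP1, which anchors the lipase to endothelium, by 0.35 (SE 0.10, adjusted p = 0.0311), but not without reagent-alone replicate 1 or 3 or without siFGFR3#35. LIPG, endothelial lipase, did not pass (-0.28, adjusted p = 0.0735). Of 5 tested class B scavenger receptors and thrombospondins, the family and ligands of CD36, SCARB2 of lysosomes rose by 0.52 (SE 0.11, adjusted p = 0.0095). The lipoprotein receptor SCARB1 fell by 0.44 (SE 0.12, adjusted p = 0.0202), but not without any 1 reagent-alone replicate or without siFGFR3#3. Without siFGFR3#36, 2 genes of this last list rose. The share called was 50% for the lipid-binding list, 25% for the lipase list and 40% for the list with the scavenger receptors. Over all kept genes it was 45.1%.

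Among the PPAR and RXR receptors and their coregulators 4 of 13 tested genes rose and 2 fell, 7 did not pass, and the median was 0.17. The share called was 46.2%, beside 45.1% of all kept genes. RXRB rose by 0.67 (SE 0.08, adjusted p = 0.0012) and the coactivator NCOA1 by 0.57 (SE 0.07, adjusted p = 0.0013). PPARA was at 4.39 ± 0.02 in controls and 5.30 ± 0.26 (SD, n = 3) in siFGFR3 cells; its rise was 0.91 (SE 0.13, adjusted p = 0.0022). NCOA2 rose by 0.42. PPARG was at 9.84 ± 0.01 and 9.90 ± 0.19 (SD, n = 3) and did not pass (0.06, SE 0.09, adjusted p = 0.622). The genes that fell were the coactivator PPARGC1B, by 0.55, and PPARD, by 0.20, and they did not pass without any 1 reagent-alone replicate; without siFGFR3#35 or siFGFR3#3, or with dim rows kept, 1 fell. PPARA, NCOA2, PPARG, PPARGC1B and PPARD were named after their values were seen.

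Of 16 tested PPAR targets that are not members, 5 rose and 3 fell, while 8 did not pass. The share called was 50%, beside 45.1% of all kept genes, and the median change was 0.12. Beside ACSL1, the hydrogen peroxide-degrading enzyme CAT rose by 0.68 (SE 0.08, adjusted p = 0.0013). UCP2, a mitochondrial carrier, also rose (0.75), as did HADHA and ACADVL. NR1H3, the oxysterol receptor LXR alpha, the malic enzyme ME1 and PLIN4 fell (-0.47, -0.37 and -0.40). All but ACSL1 and CAT were named after their values were seen. Without any 1 reagent-alone replicate or without siFGFR3#3, and without the variance trend, 3 rose, and with arrays centred on their median 3 rose and 3 fell.

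**Figure D4:**
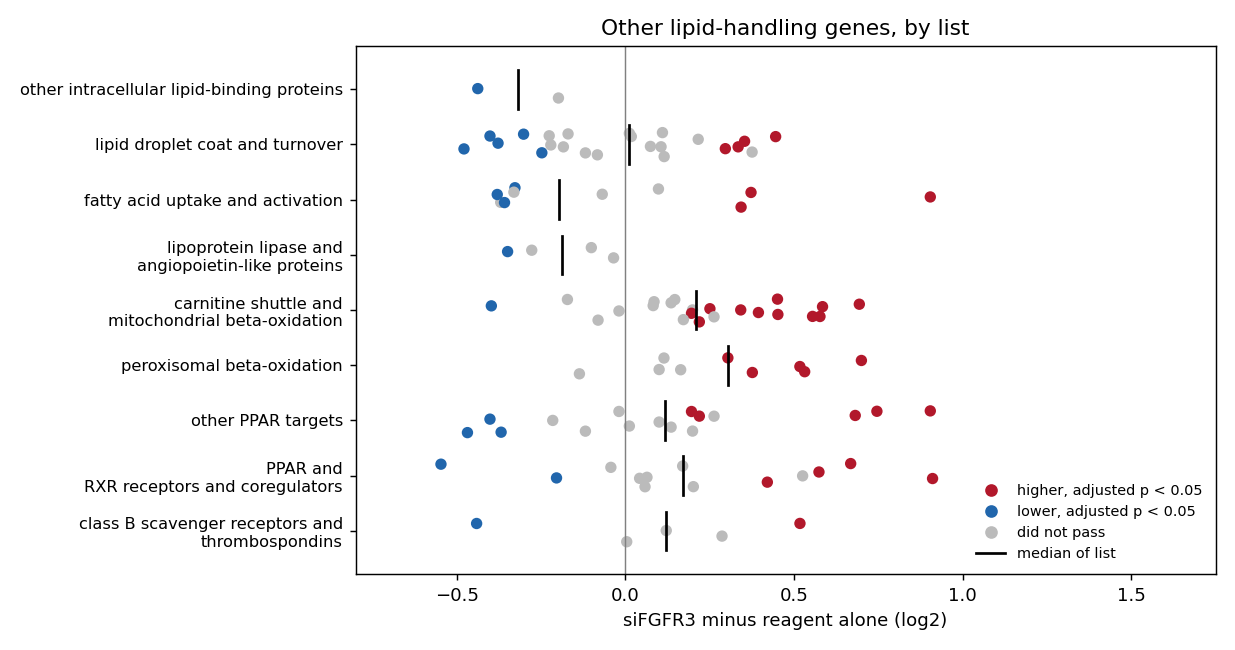
Difference in log2 level between siFGFR3 and reagent-alone cells for every kept gene of the 9 lists; each point is a gene, coloured by its limma call, and the black line is the median of the list. Points of both oxidation lists lie mostly to the right of 0, with medians of 0.21 and 0.30, while those of the droplet list lie on both sides of 0.

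FABP4 also marks adipocytes, macrophages and endothelium, so markers of these cells were read beside it. Of 4 tested adipocyte markers 1 fell, GPD1, at -0.42 (adjusted p = 0.0343), while LIPE (-0.17, adjusted p = 0.0892) and the brightest, PLIN1 (-0.12), did not pass. The share called was 25%, beside 45.1% of all kept genes, and GPD1 was under 3.89 on 1 array. The summed log2 level of the 6 measured adipocyte markers ranged from 24.8 to 25.5 in reagent-alone cells and from 23.3 to 24.3 in siFGFR3 cells, and ADIPOQ, the defining adipokine, was under 3.89 on all 6 arrays. Of the macrophage markers 3 of 7 were tested and 0 passed in limma (0 also at an unadjusted p under 0.05); their sum ranged from 25.0 to 25.7 in reagent-alone and from 24.1 to 25.01 in siFGFR3 cells, the brightest was CD68, CSF1R and CD14 were at differences of -0.19 and -0.21, and CD163, LYZ, MSR1 and PTPRC were under 3.89 on all 6 arrays. Of the endothelial markers 1 of 6 was tested, VWF, the brightest, which did not pass (-0.25, adjusted p = 0.0595); their sum ranged from 20.4 to 20.6 in reagent-alone and from 19.7 to 20.2 in siFGFR3 cells, and CDH5, KDR and TEK were under 3.89 on all 6 arrays. The sums include the markers left out as dim, 2 of 6 for adipocytes, 4 of 7 for macrophages and 5 of 6 for endothelium. A shift of signals near the floor therefore enters them. The part of such cells in the values of FABP4 was not tested.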

How the data were processed

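The deposited values are log2 expression levels; the authors used RMA and affy, according to the submitters' processing notes, and versions and genome build are not given in the sources used here. RMA evens out probe signals between arrays, but the deposited medians still ranged from 5.41 to 5.43 over the controls and from 5.45 to 5.52 over the siRNA arrays. Row names are Entrez gene IDs with a suffix, 1 row per gene. The platform annotation gave 1 symbol for 18669 of 19361 rows, brought up to date by gene ID from RefSeq (GRCh38.p14); 692 unnamed rows stayed in the tests. The dimmest 30% of rows by mean were left out. Models were fitted in limma (version 3.58.1, R version 4.3.3; eBayes with a variance trend), adjusted by Benjamini-Hochberg over 13552 rows, with a two-sided threshold of 0.05; SE is that of the moderated statistic. An exact permutation test of 3 against 3 arrays cannot give a p below 0.1. Array data have no depth, and the number of arrays limits the precision. The members and lists were chosen with earlier results of these data known. Named genes are the members, FGFR3, per list the 2 genes with the lowest adjusted p, the brightest gene of each marker list and the nearest genes of each kept member (5 for FABP4, 3 for the others); others are marked as chosen later. Alternatives were no filter, no trend, median centring, leaving out each array and the 4-level model. In the 4-level model only reagent-alone arrays were left out. The code was tested on simulated data.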

Additional observations from a re-analysis of the deposited data

Results flagged for a closer look

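The change of a member from the reagent-alone cells differed between siRNAs by the test of that difference in 8 cases, each resting on 1 array per siRNA. For siFGFR3#36 minus siFGFR3#35 these were FABP4 (1.95), ANGPTL4 (0.50), PLIN2 (0.37) and FABP6 (-0.46). For siFGFR3#3 minus siFGFR3#35 they were FABP4 (1.26), PLIN2 (0.31) and FABP6 (-0.31). For siFGFR3#3 minus siFGFR3#36 it was FABP4 (-0.69). FABP4 with siFGFR3#35 was under 3.89, so the sizes of its differences from that array are uncertain. Groups of 3 arrays were too small for a check of single outlying arrays.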

How the results depend on the processing

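No paired analysis was possible because the numbers of the reagent-alone arrays are not shared by the siRNA arrays, whose numbers name siRNAs. Of 140 alternative values of single members, 120 kept direction and side of the threshold, 13 lost and 7 gained the call, and 0 reversed. Many of them could not reverse. The filter, the variance trend and the 4-level model leave a difference of means as it is. Leaving out a reagent-alone array leaves the differences between siRNAs as they are. Members past the threshold numbered 0 higher without the dim-row filter and with median centring, and 4 lower in the 4-level model; the causes were not tested. Leaving out 1 array gave 0 to 1 higher and 1 to 4 lower members. The FGFR3 change then ran from -1.42 to -0.77. Its adjusted p was 0.0727, 0.078 and 0.0814 without reagent-alone replicate 1, 2 or 3 and 0.0705 without siFGFR3#35. For the differences between siRNAs only reagent-alone arrays were left out, which changes the spread and not the size of a difference. Of the 15 differences 7 to 8 then passed, and with arrays centred on their median 9 passed. Leaving out any 1 array gave 1672 to 3591 higher and 1985 to 3672 lower genes in all, and 18 to 34 higher and 6 to 18 lower genes over the 9 lists. By list the ranges, with fewer arrays in each fit, were 5 to 12 higher and 1 to 2 lower for mitochondrial oxidation, 0 to 5 and 1 to 4 for droplet genes, 2 to 3 and 1 to 4 for uptake, 3 to 7 and 2 to 3 for PPAR targets, 3 to 6 and 0 to 2 for receptors and coregulators, and 1 to 2 and 0 to 1 for scavenger receptors and thrombospondins. They were 0 to 1 lower for the lipase list, 4 to 6 higher for peroxisomal oxidation, and 2 to 9 higher and 0 to 1 lower for the interferon response. The 4-level model, which takes its spread from the controls, called 4407 genes higher and 4966 lower of the 13552 kept. The model with 2 groups had called 2789 and 3329. Over the 9 lists the 4-level model called 45 genes higher and 27 lower. Its counts by list stand beside these larger totals, and nothing is read from them alone. By list it called 3 lower in mitochondrial oxidation, 8 higher and 8 lower in droplet genes, 6 lower in uptake, 2 lower in the lipase list, 1 lower in peroxisomal oxidation, 8 higher in PPAR targets, 7 higher in receptors and coregulators, 3 higher in scavenger receptors and thrombospondins and 12 higher in the interferon response. With median centring 2 mitochondrial genes, 5 uptake genes and 8 droplet genes were lower and 1 droplet gene and 3 PPAR targets higher. Without the filter 3 droplet genes and 1 receptor gene were lower, and without the variance trend 3 PPAR targets were higher. The number of arrays and, for FABP3, CD36 and FABP4 with siFGFR3#35, the dim signal limited what could be measured.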
